A study of Homo sapiens with 8 samples.

Results

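The 9 genes described here, CDKN1A, MDM2, GDF15, SESN1, ZMAT3, FAS, TP53I3, BTG2 and RRM2B, are known targets of the transcription factor p53. They were taken by name from the table of 25369 gene symbols, and all 9 were found and passed the filter on low values that left 13349 genes to test. The gene for p53 itself is not among the 9 and was not analysed here. RNA-seq was measured in MCF10A cells, a nontransformed human mammary epithelial line that became immortal spontaneously, after 7 days of encapsulation in 1 of 4 hydrogels, each with 2 libraries. The soft IPNs were interpenetrating networks of reconstituted basement membrane (rBM) and alginate, and stiff IPNs were made from the same networks with calcium sulfate in place of plain medium, which crosslinks the alginate. Soft col:rBM gels combined rBM with type 1 collagen (col-1), and stiff col gels were dense col-1 without rBM. Stiff col and stiff IPN thus differ in 4 components together (collagen, basement membrane, alginate and calcium), and these cannot be told apart. Likewise stiff col differs from soft col:rBM in stiffness, col-1 and rBM together, and soft col:rBM from soft IPN in col-1 and alginate. The study describes 2 independent trials, and libraries of the same number, here called replicate 1 and replicate 2, were taken to share a trial. The labels do not state this pairing across gels. It was inferred from how alike the replicate differences were between gels. The values are normalized counts, which are reads per gene divided by 1 factor per library and rounded. Between 13044607 and 18549928 counts per library, each a read or a read pair, were estimated to lie on genes, and a gene with 3 of them would have a normalized count of 2.41 to 3.73 depending on the library, a limit that covers counting error only.

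p53 is kept low in unstressed cells by MDM2, a ubiquitin ligase that p53 itself induces, so that the pair forms a feedback loop. When DNA damage or other stress stabilizes p53, it binds paired decamers in its target genes and raises genes that halt the cell cycle, repair DNA, limit oxidative damage or prepare cell death. Epithelial cells express many of these genes at a basal level, and several also answer to other pathways, such as GDF15 to the amino acid and endoplasmic reticulum stress factor ATF4.

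The cells carried their epithelial markers in every gel. All 9 mammary epithelial markers used were present in all libraries, and they summed to between 95226 and 167129 normalized counts. The defining fibroblast genes COL1A2 and THY1 were at 0 in all 8 libraries, as were the endothelial gene CLDN5 and the blood cell genes PTPRC and HBB. Of the other endothelial genes PECAM1 had 2 to 32 normalized counts, CDH5 7 in stiff IPN replicate 2 and 0 elsewhere, and VWF at most 2. Of the 8 fibroblast markers only DCN (526 to 1217 normalized counts) and COL1A1 (168 to 333) reached 10. In the blood cell list CD68, a lysosomal gene, held nearly the whole sum, at 324 to 5017.

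Binding motifs of p53 lie near most of the 9 genes. The GRCh37 genome was searched on both strands, within 5000 bases of the start of each gene's representative transcript, for a pair of abutting decamers of the p53 consensus with at most 2 mismatches and with the C and G of both decamer cores intact. A match was found for 7 of the 9 genes, against 7.62% of 19794 windows around protein-coding genes. The matches of CDKN1A, BTG2, MDM2, FAS, GDF15 and ZMAT3 are shown because such a match is a sequence feature that 7 of the 9 genes share. Capitals mark the C and G of the 2 cores.
CDKN1A: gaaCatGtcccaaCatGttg
BTG2: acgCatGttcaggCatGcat
MDM2: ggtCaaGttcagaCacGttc
FAS: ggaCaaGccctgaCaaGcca
GDF15: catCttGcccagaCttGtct
ZMAT3: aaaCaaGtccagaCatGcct
The CDKN1A match lies at chr6:36644226-36644245, upstream of the representative transcript with its first base at -2265 from the start. That of BTG2 is at chr1:203272770-203272789, upstream at -1877, and that of GDF15 at chr19:18496118-18496137, upstream at -850. The matches of MDM2 (chr12:69202703-69202722), FAS (chr10:90751066-90751085) and ZMAT3 (chr3:178787976-178787995, minus strand) lie in introns. ZMAT3 had 0 mismatches, which only 0.141% of the windows reach, and the other 5 shown had 2. RRM2B had an intronic match with 1 mismatch, and none was found in the windows of SESN1 and TP53I3. A match says that these letters are present and not that p53 was bound.

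Levels differed widely between the genes. Per kilobase of annotated exon, the median over the 8 libraries was 1780 normalized counts for CDKN1A and 1560 for TP53I3, whose ranges overlapped. MDM2 followed at 403, with a highest value (487) below the lowest of TP53I3 (970). FAS (300), RRM2B (275), BTG2 (256) and ZMAT3 (132) came next, each with a range that overlapped that of its neighbour. GDF15 (98.2) and SESN1 (66.4) were lowest per kilobase and overlapped as well. The lengths join all annotated exons of a gene, and the annotation used for counting is not given, so this order depends on the annotation. The ratio of the highest to the lowest library was 3.64 for GDF15, 2.9 for BTG2 and 1.31 for ZMAT3, the steadiest of the 9. The library kit is not stated to keep strand, so reads cannot be told apart from those of antisense genes that share exons. This touches FAS most, where an antisense lncRNA shares 25.7% and ACTA2 shares 10.7% of the exon bases, and MDM2, where an antisense lncRNA shares 9.45%. A processed pseudogene on the same strand as MDM2 shares 5.29% of its exon bases.

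CDKN1A, which encodes the cyclin-dependent kinase inhibitor p21, had normalized counts of 6264 and 5634 in soft IPN, 4135 and 7513 in stiff IPN, 6104 and 4605 in soft col:rBM and 5030 and 4378 in stiff col (replicate 1, then replicate 2). Both the lowest and the highest of the 8 libraries were thus stiff IPN libraries. BTG2, an antiproliferative cofactor of mRNA deadenylation, had 630 and 983 in soft IPN, 449 and 920 in stiff IPN, 365 and 854 in soft col:rBM and 339 and 782 in stiff col. Every replicate 2 library lay above every replicate 1 library for BTG2, while the gels overlapped. MDM2 had 3151 and 3321 in soft IPN, 3919 and 4045 in stiff IPN, 2703 and 3374 in soft col:rBM and 2476 and 3768 in stiff col. Its stiff IPN libraries were the highest pair and did not overlap those of the other gels.

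FAS, a death receptor of the cell surface, had normalized counts of 804 and 1064 in soft IPN, 1094 and 1070 in stiff IPN, 671 and 1153 in soft col:rBM and 710 and 1403 in stiff col. Its spread was between replicates of the collagen gels, with the stiff col libraries the second lowest and the highest of all. TP53I3, an oxidoreductase linked to reactive oxygen species, had 3897 and 4408 in soft IPN, 3107 and 3976 in stiff IPN, 3339 and 3965 in soft col:rBM and 2243 and 3099 in stiff col. Both stiff col libraries lay below every library of the other gels.

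RRM2B, a subunit of ribonucleotide reductase that supplies nucleotides for DNA repair, had 1657 and 1350 normalized counts in soft IPN, 1572 and 1384 in stiff IPN, 1041 and 1560 in soft col:rBM and 1405 and 1951 in stiff col. Replicate 2 was the lower library in both IPNs and the higher in both collagen gels. SESN1, a stress-induced regulator of mTORC1 signalling, had 513 and 565 in soft IPN, 439 and 420 in stiff IPN, 425 and 629 in soft col:rBM and 453 and 690 in stiff col. Stiff IPN lay below soft IPN and stiff col without overlap for SESN1. ZMAT3, an RNA-binding zinc finger protein, stayed between 1336 and 1747 in all 8 libraries. GDF15, a secreted cytokine of the TGF-beta superfamily, had 462 and 196 in soft IPN, 262 and 210 in stiff IPN, 200 and 127 in soft col:rBM and 371 and 195 in stiff col. Within each gel its replicate 2 library was the lower one.

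**Figure D1:**
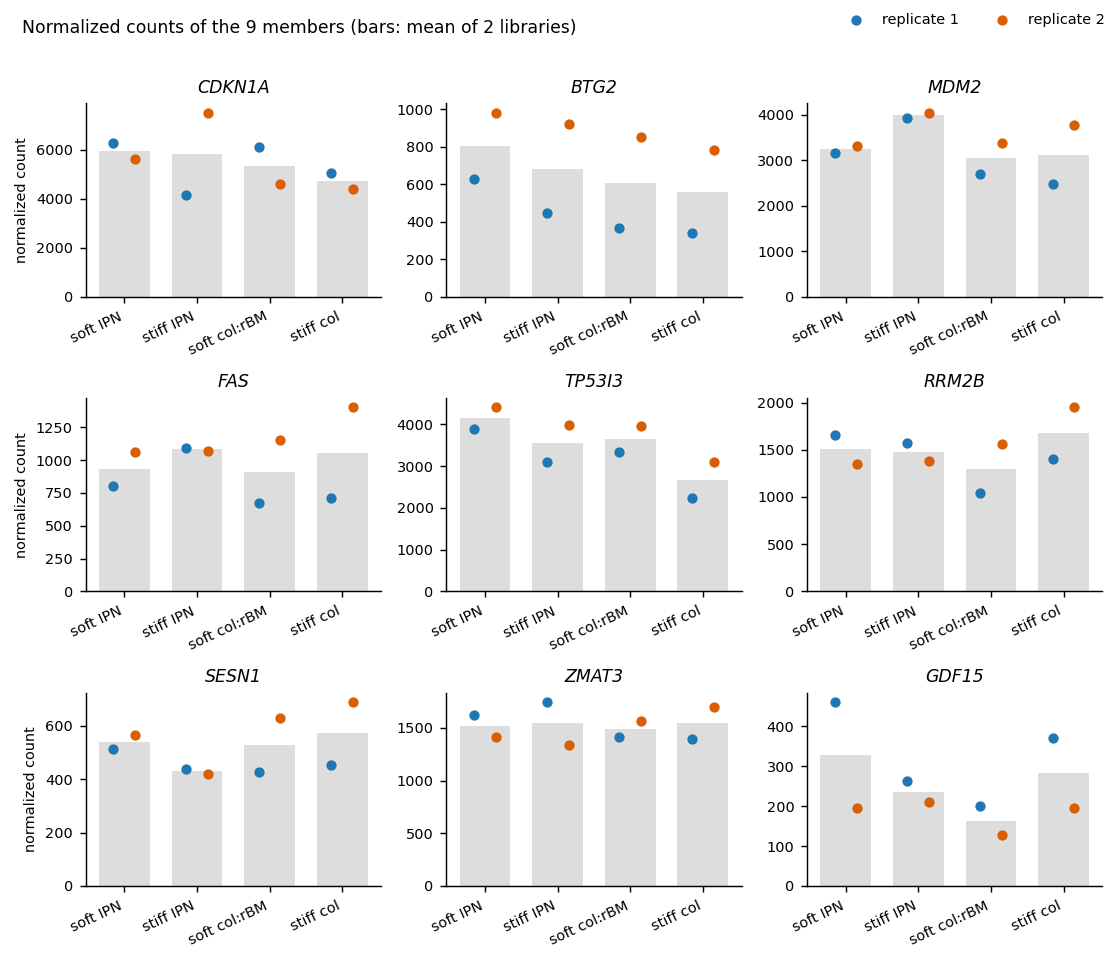
Normalized counts (vertical axes, from 0) of the 9 genes in each gel, with 1 point per library colored by replicate and bars at the mean of 2 libraries. BTG2 separates by replicate in every gel, and CDKN1A spans from 4135 to 7513 within stiff IPN.

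Stiffening of the IPN by calcium sulfate moved none of the 9 genes past the threshold. Differences are log2 fold changes on the log2(normalized count + 1) scale, tested with limma across all 13349 genes against an adjusted p of 0.05. In stiff IPN minus soft IPN 0 of the 9 were called without a replicate block, where 0% of all genes were called, and 0 with the replicate number as a block, where 511 genes (3.83%) were called. At an unadjusted p under 0.05 there were 0 of the 9 in both fits, and 1245 and 3296 of all genes. The median log2 fold change of the 9 was -0.092, beside -0.0062 for all genes tested. MDM2 was higher by 0.30 (95% CI -0.26 to 0.86, adjusted p = 0.701 in limma without the block), and by 0.31 and 0.28 in replicates 1 and 2. It was at 3982 ± 89.1 in stiff IPN and 3236 ± 120 in soft IPN (SD, n = 2). SESN1 was lower by a log2 difference of -0.33 (95% CI -0.97 to 0.32, adjusted p = 0.719 in limma without the block), at -0.22 and -0.43 in replicates 1 and 2. In the fit of the IPN libraries alone with the block, the intervals were -0.15 to 0.75 for MDM2 and -0.80 to 0.15 for SESN1. FAS differed by 0.23, GDF15 by -0.36, BTG2 by -0.29, TP53I3 by -0.24, RRM2B by -0.020 and ZMAT3 by 0.014, all within intervals that held 0. With every library scaled to the same total, which moved the median of all genes to 0.26, that of the 9 turned to 0.18. There CDKN1A (0.18), TP53I3 (0.033) and RRM2B (0.25) turned above 0, and MDM2 was at 0.57, FAS 0.50, ZMAT3 0.28, GDF15 -0.089, SESN1 -0.055 and BTG2 -0.021.

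CDKN1A had opposite signs in the replicates of this comparison. Its log2 difference of stiff minus soft IPN was -0.60 in replicate 1 and 0.42 in replicate 2, and the fit gave -0.092 (95% CI -0.81 to 0.63, adjusted p = 0.945 in limma). This value depended on either stiff IPN library. Without stiff IPN replicate 2 and with the replicate block CDKN1A was called lower in stiff IPN, at -0.65 (adjusted p = 0.0447 in limma, 8.05% of all genes called), and without stiff IPN replicate 1 it turned above 0, at 0.34 without and 0.47 with the block, and was not called. Over all alternatives its adjusted p in this comparison ran from 0.0447 to 0.999. Stiff IPN replicate 2 also lay apart from the other 7 libraries on the first principal component, at 62.1 beside values of -50.4 to 26.6, and its part in the p53 target values was not tested otherwise.

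Going from soft col:rBM to stiff col, again 0 of the 9 were called without the block (0% of all genes) and 0 with it (0%), while 0 and 2 of the 9 had an unadjusted p under 0.05 in limma, beside 140 and 497 of all genes. The median of the 9 was 0.051, and that of all genes -0.0035. GDF15 was higher in stiff col by 0.75 (95% CI -0.39 to 1.89 without the block and 0.20 to 1.30 with it), and by 0.89 and 0.61 in replicates 1 and 2. It ranged from 0.29 without stiff col replicate 1 to 1.21 without stiff col replicate 2. TP53I3 was lower, at -0.46 (95% CI -1.01 to 0.086 without the block and -0.79 to -0.14 with it), and its libraries in these gels did not overlap. With 1 library left out TP53I3 ranged from -0.70 to -0.23. The adjusted p of both was 1 without the block, and with it 1 for GDF15 and 0.957 for TP53I3 in limma. RRM2B differed by 0.38, FAS by 0.18, CDKN1A by -0.18, BTG2 by -0.12, SESN1 by 0.11, ZMAT3 by 0.051 and MDM2 by 0.016.

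When the 4 collagen libraries were fitted by themselves, again with the replicate block, the count changed. There 3 of the 9 were called, GDF15 (adjusted p = 0.00224 in limma), TP53I3 (0.00139) and RRM2B (0.006), beside 992 of 12962 genes (7.65%). That fit has 4 libraries and 1 residual degree of freedom. Its moderated spread thus rests largely on how alike the 2 replicates' differences are across all genes, and less on each gene's own. Over all alternatives the adjusted p of each of the 3 ran from these values to 1.

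Between the stiff gels, stiff col minus stiff IPN, 0 of the 9 were called without the block (0% of all genes) and 0 with it, where 330 genes (2.47%) were called. Unadjusted p under 0.05 was reached by 0 and 1 of the 9 and by 838 and 2529 of all genes in limma. The median of the 9 was -0.12 and that of all genes 0.0039. TP53I3 was lower in stiff col, at -0.41 (95% CI -0.96 to 0.14), with an adjusted p of 0.817 without and 0.17 with the block in limma. MDM2 was lower as well, at -0.38 (95% CI -0.94 to 0.18), and SESN1 higher, at 0.38 (95% CI -0.27 to 1.03), both in both replicates. These intervals of TP53I3, MDM2 and SESN1 are from the fit without the block. In the fit of the stiff gels alone with the block they were -0.90 to 0.075, -0.90 to 0.14 and -0.21 to 0.97. BTG2 differed by -0.32, CDKN1A by -0.25, GDF15 by 0.20, RRM2B by 0.17, FAS by -0.12 and ZMAT3 by 0.013. For CDKN1A the replicates differed in sign, at 0.28 and -0.78, and without stiff IPN replicate 1 and with the block it was called lower in stiff col, at -0.81 (adjusted p = 0.0139 in limma, 16.5% of all genes called), while without stiff IPN replicate 2 it turned to 0.18 without and 0.31 with the block and was not called. Its adjusted p ran from 0.0139 to 1 over the alternatives.

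Between the soft gels, soft col:rBM minus soft IPN, all 9 log2 fold changes were below 0, with a median of -0.16 beside -0.0027 for all genes. In replicate 1 all 9 were below 0, but in replicate 2 MDM2, SESN1, ZMAT3, FAS and RRM2B were above 0, at 0.023 to 0.21, and without soft col:rBM replicate 1 and without the block 6 of the 9 were above 0. None passed the test. In limma 0 of the 9 were called without the block (0% of all genes) and 0 with it (0%), and 0 and 2 of the 9 had an unadjusted p under 0.05, beside 190 and 635 of all genes. With every library scaled to the same total, which moved the median of all genes to 0.10, 4 of the 9 were above 0 and 5 below. GDF15 had the lowest value, -0.91 (95% CI -2.05 to 0.23 without the block and -1.46 to -0.36 with it, adjusted p = 1 and 0.702 in limma), and was lower in both replicates. It ranged from -1.53 without soft IPN replicate 2 to -0.30 without soft IPN replicate 1. BTG2 followed at -0.49 (95% CI -1.83 to 0.84, adjusted p = 1 in limma without the block), and was at -0.79 and -0.20 in replicates 1 and 2. In the fit of the soft gels alone with the block its interval was -0.85 to -0.14 (adjusted p = 0.353 in limma). RRM2B differed by -0.23, TP53I3 by -0.19, CDKN1A by -0.16, MDM2 by -0.099, FAS by -0.072, SESN1 by -0.058 and ZMAT3 by -0.024.

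The stiff minus soft values of the 2 gel systems, called stiffness effects here although composition changes with stiffness in the collagen gels, were also set against each other by subtracting the IPN effect from the collagen effect. Of the 9 genes 0 were called without the block (0% of all genes) and 0 with it, where 2 genes (0.015%) were called, and 0 and 1 of the 9 had an unadjusted p under 0.05 in limma, beside 278 and 1320 of all genes. GDF15 had the largest value, 1.11 (95% CI -0.50 to 2.72, adjusted p = 1 in limma without the block), which ran from 0.49 without soft IPN replicate 1 to 1.73 without soft IPN replicate 2. Its stiff minus soft IPN value was -0.82 in replicate 1 and 0.10 in replicate 2. SESN1 came next at 0.44, then RRM2B at 0.40, MDM2 at -0.28, TP53I3 at -0.23, BTG2 at 0.17, CDKN1A at -0.084, FAS at -0.044 and ZMAT3 at 0.037. This order changed with every library scaled to the same total. There MDM2 (-0.50) and TP53I3 (-0.45) came ahead of SESN1 (0.22) and RRM2B (0.18), and BTG2 turned to -0.044. The median of the 9 went from 0.037 to -0.18, beside -0.21 for all genes. In the F test for any difference among the 4 gels 0 of the 9 were called without the block (0% of all genes) and 0 with it, where 208 genes (1.56%) were called. Unadjusted p under 0.05 was reached there by 0 and 3 of the 9 and by 700 and 2645 of all genes in limma. With the block and without stiff IPN replicate 1, some of the 9 were called in this F test. Calls among all genes rose there as well, and that fit has a single stiff IPN library.

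**Figure D2:**
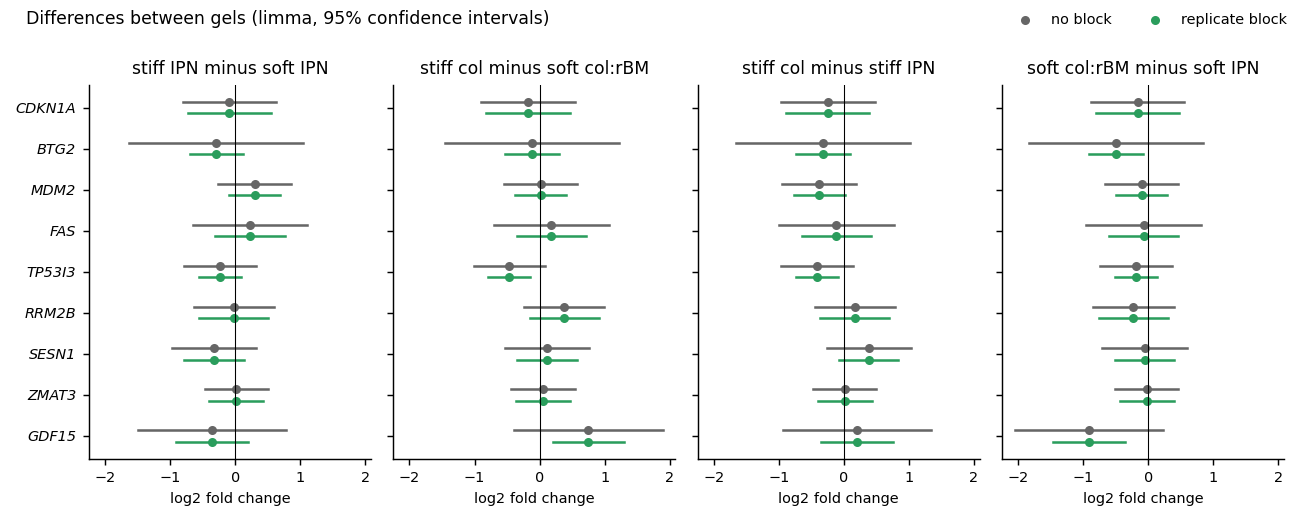
Log2 fold changes (horizontal axis) of the 9 genes in 4 comparisons of gels, with 95% confidence intervals from limma without (grey) and with (green) the replicate block. GDF15 has the most distant values, 0.75 in the collagen gels and -0.91 between the soft gels, and no adjusted p passed 0.05.

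Many genes differed between the replicates, a comparison of 4 libraries with 4 where those of gels have 2 against 2. The 4 libraries of a replicate number are 4 different gels. The p values thus measure how alike the difference was across gels, and not the variation between trials. With gel as a term in the fit, 4 of the 9 genes differed between replicate 2 and replicate 1, beside 3617 of all genes (27.1%), a share of 44.4% that rests on 4 genes. BTG2, FAS and TP53I3 were higher in replicate 2, beside 12.7% of all genes called higher, and GDF15 was lower, beside 14.4% called lower. BTG2 rose most, by 1.03 (95% CI 0.73 to 1.32, adjusted p = 0.0029 in limma), in 4 of 4 gels, from 445.75 ± 131 to 884.75 ± 86.4 normalized counts (SD across gels, n = 4 gels). GDF15 fell by 0.78 (95% CI -1.17 to -0.39, adjusted p = 0.0145 in limma), in 4 of 4 gels and most in soft IPN, at -1.23. FAS rose by 0.53 (adjusted p = 0.0443 in limma) in 3 of 4 gels, and differed by -0.032 in stiff IPN. TP53I3 rose by 0.31 (adjusted p = 0.0498 in limma) in 4 of 4 gels.

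The other 5 did not pass the test. SESN1 had a log2 difference of 0.31, MDM2 0.26, RRM2B 0.14, CDKN1A 0.025 and ZMAT3 -0.040, the last at 0.091 when every library was scaled to the same total. CDKN1A was higher in replicate 2 in stiff IPN alone, by 0.86, and lower in the other gels by 0.15 to 0.41 on the log2 scale (-0.15 in soft IPN, -0.41 in soft col:rBM and -0.20 in stiff col). MDM2 was higher in 4 of 4 gels, at 0.046 to 0.61. The median of the 9 was 0.26 (0.15 to 0.32 with 1 library left out) and that of all genes -0.0055. Scaling to equal totals moved the median of the 9 to 0.39 and that of all genes by over 0.1, to 0.12. This scaling left 4 of the 9 called. It also gave 2400 genes called higher and 1242 lower, in place of 1693 and 1924.

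These calls depended on single gels. Leaving out a library also takes its partner out of the comparison. Without soft IPN replicate 1 or 2, 1 of the 9, BTG2, was called, beside 12% and 12.3% of all genes, and likewise without stiff col replicate 1 or 2, beside 9.08% and 9.16%. Without soft col:rBM replicate 1 or 2, BTG2 and GDF15 were called, beside 9.12% of all genes each time. Without stiff IPN replicate 1 or 2, 6 of the 9 were called, the 4 above with MDM2 (0.33) and SESN1 (0.44), beside 43.9% of all genes. With plain moderation 2 of the 9 (BTG2 and GDF15) were called, beside 2666 of 13349 genes. Without the filter on low values 3 of the 9 were called, beside 3627 of 18823 genes, and TP53I3 was not (adjusted p = 0.0661 in limma). Without the gel term BTG2 alone was called, beside 2118 genes (15.9%). BTG2 was called under every alternative tried for this comparison, with adjusted p values up to 0.0163. An exact permutation test of 4 pairs could not go below a two-sided p of 0.125, so no such test is given for single genes.

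**Figure D3:**
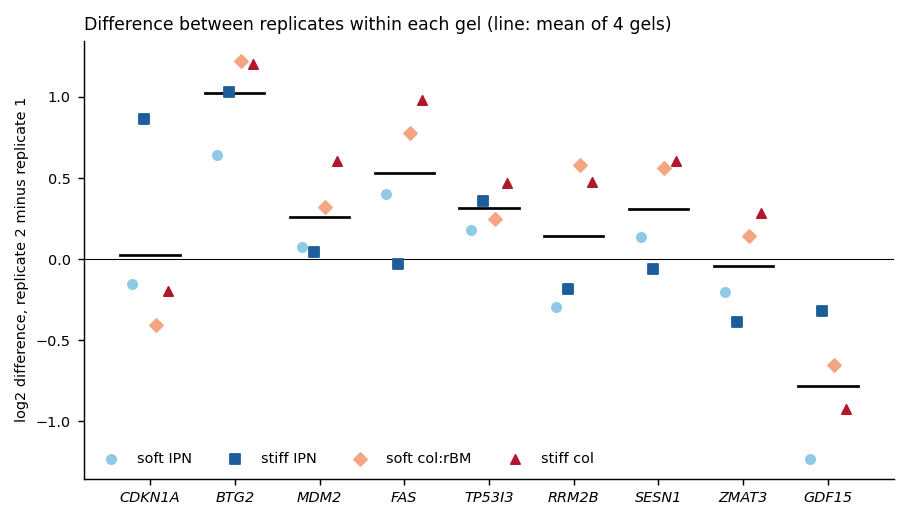
Log2 difference of replicate 2 minus replicate 1 (vertical axis) for the 9 genes, with 1 symbol per gel and a line at the mean of the 4 gels. BTG2 lies above 0 and GDF15 below 0 in all 4 gels, while CDKN1A is above 0 only in stiff IPN, at 0.86.

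Many other known p53 targets also differed between the replicates. Of 36 such genes 17 (47.2%) were called, 13 higher and 4 lower in replicate 2, and the median over the 36 was 0.26, where 27.1% of all genes were called, 12.7% higher and 14.4% lower. Among 8 genes of arrest and feedback, 2 rose and 2 fell. The polo-like kinase PLK2 rose by 1.15, SFN, which encodes 14-3-3 sigma, rose by 0.82, and GADD45A fell by 0.79. Among 12 apoptosis genes 5 rose, led by the receptor EDA2R (0.82) and TP53INP1 (0.67), and 1, the BH3-only gene PMAIP1, fell by 0.67. Among 16 genes of repair and metabolism 6 rose and 1 fell, with CYFIP2 at 1.82, C12orf5 (TIGAR, a regulator of glycolysis) at 1.52 and the nucleotide excision repair gene DDB2 at 0.95. The adjusted p of these 9 named genes lay between 0.00247 and 0.0319 in limma. Without single libraries the count of 17 moved with the share of all genes called. It was 5 without either soft col:rBM library (9.12% of all genes), 6 without either stiff col library (9.08% and 9.16%), 9 and 10 without soft IPN replicate 1 and 2 (12% and 12.3%) and 21 without either stiff IPN library (43.9%). Without the gel term it was 10 (15.9%). PLK2, SFN, CYFIP2, C12orf5 and DDB2 were called whichever library was left out. EDA2R, GADD45A and PMAIP1 were called only with all libraries or without a stiff IPN library, and TP53INP1 lost its call without each single library of the collagen gels. Without the gel term PLK2, SFN, CYFIP2 and PMAIP1 were not called, and GADD45A was not called with equal totals or with plain moderation.

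The genes around p53 gave mixed signs, beside the same 12.7% of all genes called higher and 14.4% called lower. Of 10 regulators and family members 2 rose in replicate 2, the p53 relative TP63 (0.97) and the DNA damage kinase ATR (0.73), and 2 fell, among them the kinase HIPK2 by 0.72. Of 16 genes known to be lowered through p21 and the DREAM repressor complex 5 rose and 0 fell, with a median of 0.30. E2F1 rose by 1.46, RRM2 by 1.11 and MCM5 by 0.93. Within stiff IPN 12 of the 16 were below 0, among them CDC25C (-1.15), TOP2A (-0.75) and BUB1 (-0.63), named after their values were seen. Of 10 genes that are ATF4 and 9 of its targets 5 rose and 0 fell, with a median of 0.59. CHAC1 rose by 2.38, PSAT1 by 2.34 and ASNS by 2.25, each in 4 of 4 gels. GDF15, also known as a target of ATF4, fell in the same libraries. Within the list DDIT3 (-0.83), ATF3 (-0.67) and ATF4 itself (-0.21) were below 0 in 3 of 4 gels without passing the test, and were chosen after their values were seen. HIPK2, E2F1 and ASNS were called whichever library was left out. TP63, ATR, RRM2 and MCM5 were called only with all libraries or without a stiff IPN library, CHAC1 lost its call without each single library of the soft gels, and PSAT1 was not called without either stiff col library. HIPK2 was not called without the gel term, nor TP63, RRM2 and MCM5 with plain moderation.

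Markers of the cells moved with the replicates as well. Of 9 mammary epithelial markers 4 rose and 2 fell in replicate 2, where 12.7% of all genes were called higher and 14.4% lower. Those that rose include the basal keratins KRT14 (1.94), KRT17 (1.80) and KRT5 (1.35), and the 2 that fell were ITGB4 (-0.91) and LAMB3 (-0.51), in 4 of 4 gels each and named after their values were seen. Of the blood cell markers CD68, the 1 tested, fell by 1.74. Without the gel term KRT17 and CD68 were not called. Of 2 fibroblast markers and 1 endothelial marker tested 0 were called in limma at the adjusted p of 0.05. The part of these shifts in the values of the p53 targets was not tested, and a change in the mix of cell states and a change per cell cannot be told apart in bulk RNA.

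**Figure D4:**
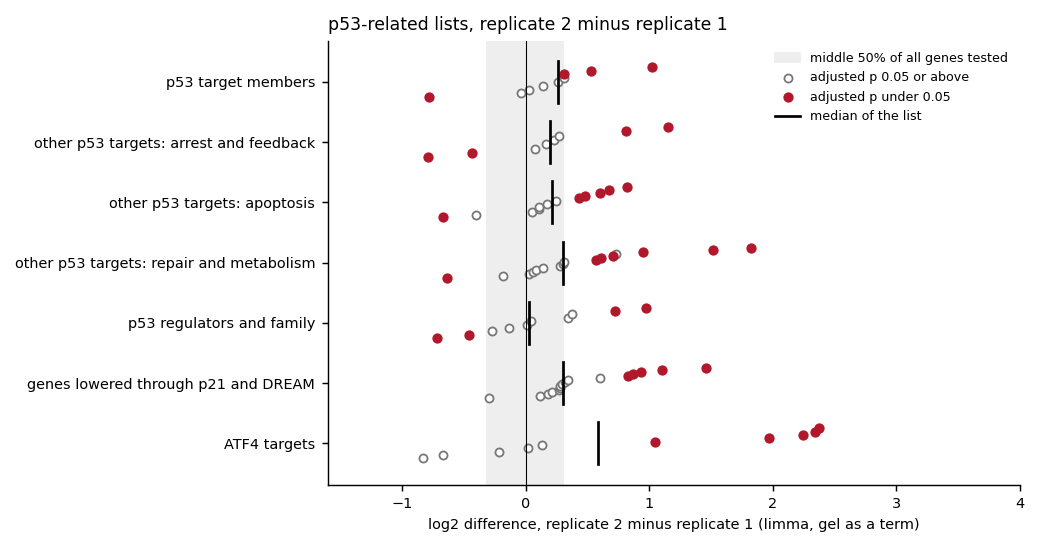
Log2 difference of replicate 2 minus replicate 1 (horizontal axis) for the genes of 7 p53-related lists, with filled points for an adjusted p under 0.05 in limma, a line at each list's median and a grey band for the quartiles of all single genes tested (-0.31 to 0.30), which is no range for a median. The median was 0.26 for the 9 genes, 0.20 for arrest and feedback, 0.21 for apoptosis, 0.31 for repair and metabolism, 0.027 for regulators and family, 0.30 for p21 and DREAM and 0.59 for ATF4 and its targets.

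Between gels few of the other p53 genes were called, and only with the replicate block. In stiff IPN minus soft IPN 1 of the 36 other targets was called, PLK2, at 1.26 (adjusted p = 0.0464 in limma with the block), beside 3.83% of all genes. In stiff col minus stiff IPN 2 of the 36 were called, PLK2 at -1.83 (adjusted p = 0.0198) and SFN at -1.06 (adjusted p = 0.0318, limma with the block), beside 2.47% of all genes. PLK2 was highest in the stiff IPN libraries, at 340 and 1027 normalized counts in replicates 1 and 2, and its difference of stiff col minus stiff IPN was -1.76 and -1.90 in them. Of the 10 regulators 1, HIPK2, was lower in stiff IPN than in soft IPN, at -1.02, and higher in stiff col than in stiff IPN, at 0.92 (adjusted p = 0.0307 and 0.0364 in limma with the block). Without the block 0 of the 36 and 0 of the 10 regulators were called in any of these comparisons, and in stiff col minus soft col:rBM and soft col:rBM minus soft IPN 0 were called in either fit of limma. With the block an unadjusted p under 0.05 was reached by 7 of the 36 in stiff IPN minus soft IPN, 1 in stiff col minus soft col:rBM, 11 in stiff col minus stiff IPN and 6 in soft col:rBM minus soft IPN, beside 3296, 497, 2529 and 635 of all genes in limma. The p21 and DREAM genes had 0 called in every gel comparison. Of the ATF4 targets DDIT4 was called lower in stiff IPN than in soft IPN, at -1.15 (adjusted p = 0.0422 in limma with the block).

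These calls between gels depended on single libraries. The number of all genes called with the block moved too, in stiff IPN minus soft IPN and in stiff col minus stiff IPN. It was lower without either soft IPN library and higher without either stiff IPN library. With the block, PLK2 in stiff IPN minus soft IPN was not called without soft IPN replicate 2 (0.81), stiff IPN replicate 2 (0.97), soft col:rBM replicate 2 or either stiff col library (1.26 each), and in stiff col minus stiff IPN not without stiff col replicate 1 (-1.63). SFN was not called without stiff col replicate 1 (-1.16) or 2 (-0.95). HIPK2 in stiff IPN minus soft IPN was not called without soft IPN replicate 1 (-1.22) or 2 (-0.82), and in stiff col minus stiff IPN not without either soft IPN library (0.92 each) or stiff col replicate 1 (0.97) or 2 (0.88). DDIT4 was not called without soft IPN replicate 1 (-1.36) or 2 (-0.94), nor without either stiff col library (-1.15 each). Over fits without and with the block and with 1 library left out, PLK2 ran from 0.46 to 2.05 and from -2.62 to -1.03 in these comparisons, SFN from -1.39 to -0.72, HIPK2 from -1.54 to -0.50 and from 0.40 to 1.44, and DDIT4 from -1.59 to -0.71. In fits of the compared gels alone with the block, PLK2 and DDIT4 in stiff IPN minus soft IPN and HIPK2 in stiff col minus stiff IPN were not called.

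Markers also differed where stiff IPN was compared. With the block KRT17 (1.88) and CDH1 (0.91) were higher and ITGB4 (-1.45) and CD68 (-2.24) lower in stiff than in soft IPN. In stiff col minus stiff IPN KRT17 (-2.57), CDH1 (-1.63) and KRT14 (-1.52) were lower and CD68 (1.72) higher. With 1 library left out, without and with the block, KRT17 ran there from -3.62 to -1.52 and CDH1 from -1.88 to -1.37. KRT14 ran from -2.65 to -0.39 and CD68 from 0.65 to 2.79. In stiff minus soft IPN all 4 calls were lost without soft IPN replicate 2, and that of CDH1 without soft IPN replicate 1. Fewer of all genes were called in those fits too. With 1 library left out KRT17 ran in this comparison from 0.94 to 2.82 and CDH1 from 0.66 to 1.16. ITGB4 ran from -2.04 to -0.86 and CD68 from -3.19 to -1.28. In stiff col minus stiff IPN KRT17 alone was called whichever library was left out. Their part in the values of PLK2, SFN and HIPK2 was not tested.

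As a description of likeness, the log2 values of each gene were compared with the mean z-score of the 9 over the 8 libraries, which share replicate numbers and gels. The mean z-score was lowest in replicate 1 of soft col:rBM (-0.8) and stiff col (-0.787) and highest in replicate 2 of stiff col (0.568). Of the 9 genes BTG2 (r = 0.826), FAS (0.811), MDM2 (0.791) and RRM2B (0.76) followed this mean most, while CDKN1A (-0.0841) and GDF15 (-0.173) did not follow it. Each of the 9 is part of this mean, which raises its r, so these values cannot be compared with those of other genes. The 5 genes outside the 9 with the highest Pearson r were ANKRD20A12P (0.992), TERF1 (0.97), AFG3L2 (0.954), PPM1D (0.946) and RPS10 (0.939). ANKRD20A12P and RPS10 had low values, at 9 to 45 and 28 to 109 normalized counts. PPM1D encodes a phosphatase that p53 induces and that acts back on it, with 117 to 199 normalized counts. The genes most like CDKN1A were DHRS4L2 (0.972), NUDT16L1 (0.961), ZNF821 (0.952), AURKAIP1 (0.94) and CLTA (0.94).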

How the data were processed

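RNA was read as paired ends on an Illumina HiSeq from TruSeq libraries. The authors trimmed reads with Trim Galore 0.3.3, aligned them to hg19 (Bowtie2 in the study's methods, TopHat2 2.0.13 in the submitters' processing notes), filtered them with SAMtools 1.1 and counted them per gene with HTSeq. The deposited signal is these counts as the authors divided them by 1 size factor per library (they name DESeq2) and rounded them. Annotation and strand setting are not given in the sources used here. Reads per library were estimated from whole numbers that recur empty or doubled. The study's count test was not used because the values are scaled.

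Of 25369 symbols 28 had been turned into dates and were left out. Genes reaching 10 in 2 or more libraries were fitted as log2(value + 1) with limma 3.58.1 (R 4.3.3, statmod 1.5.0), with 1 mean per gel, a variance trend, robust moderation and Benjamini-Hochberg adjustment over all genes. The fits were checked on simulated data. Replicates are independent trials per the study's methods, but the labels do not say which libraries share a trial. Replicate 2 minus replicate 1 correlated across 13349 genes in each of the 6 pairs of gels (r from 0.278 to 0.819). The numbers were therefore taken to pair the libraries. The correlations were lowest for stiff IPN, at 0.278 with soft IPN, 0.394 with soft col:rBM and 0.399 with stiff col. A permutation test of 2 against 2 libraries cannot go below p = 0.333. Positions and exons are from GENCODE 44 lifted to hg19. Python 3.11.15, numpy 2.4.6, pandas 2.3.3 and matplotlib 3.10.9 were used. All 9 genes were named, and up to 3 called genes with the largest change from each other list, from the fit without the block where any passed there. The members and lists were chosen with earlier results of these data known. A marker of the epithelial list is not reported here. Alternatives were pseudocounts of 0.5 and 5, filters, scalings, the replicate block, the compared gels alone, plain moderation and each library left out, without and with the block.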

Additional observations from a re-analysis of the deposited data

Results flagged for a closer look

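The stiff minus soft values of SESN1 had opposite signs in the 2 gel systems, in both replicates. In the collagen gels stiffness, col-1 and rBM change together and cannot be told apart. Stiff minus soft IPN was -0.22 and -0.43 on the log2 scale in replicates 1 and 2, and stiff col minus soft col:rBM was 0.092 and 0.13. Subtracting the IPN effect from the collagen effect gave 0.44 (95% CI -0.48 to 1.35). With 1 library left out this value ran from 0.14 to 0.74, stiff minus soft IPN from -0.58 to -0.076, and stiff col minus soft col:rBM turned sign, from -0.19 to 0.42. With every library scaled to the same total these 3 values were 0.22, -0.055 and 0.16. The difference between gel systems did not pass the test, with an adjusted p of 1 without and 0.662 with the replicate block in limma.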

How the results depend on the processing

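With 2 libraries per gel the intervals are wide, and a p that misses the threshold does not show that values did not differ. Depth does not limit the 9 genes, whose lowest value of 127 normalized counts is far above 3 reads. Where a gel has 1 library left, that library is assumed to vary like the other gels. Of 1350 log2 fold changes of the 9 genes under the alternatives, 1199 kept direction and side of the threshold, 120 turned sign, 9 gained and 22 lost a call. None of the 120 was a called value. The cause of these changes was not tested.

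With the replicate block the genes called were 511 (stiff IPN minus soft IPN), 330 (stiff col minus stiff IPN), 2 (difference of stiffness effects) and 208 (any difference among gels) in place of 0. The block changed no call of the 9 genes in the fit of all libraries. In fits of the compared gels alone with the block, 270, 992, 294 and 42 genes were called in stiff IPN minus soft IPN, stiff col minus soft col:rBM, stiff col minus stiff IPN and soft col:rBM minus soft IPN, with 3 of the 9 in the second. Without the block 1 gene was called in stiff IPN minus soft IPN. Such fits were not made for the difference of stiffness effects, the F test and the replicates, which need all gels. A pseudocount of 5 gave 4 genes in stiff col minus stiff IPN. For replicate 2 minus replicate 1, 1 of the 9 and 2118 genes were called without the gel term, and 2 of the 9 and 2666 genes with plain moderation.

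Scaling to equal totals moved the median of the 9 to 0.18 in stiff IPN minus soft IPN, where that of all genes moved to 0.26. In the difference of stiffness effects it moved to -0.18, where that of all genes moved to -0.21. The median of the 9 was -0.23 in stiff col minus stiff IPN and 0.10 in stiff col minus soft col:rBM, beside -0.11 and 0.048 for all genes. In soft col:rBM minus soft IPN this scaling gave -0.057, beside 0.10 for all genes. It turned the sign of CDKN1A (0.18), TP53I3 (0.033) and RRM2B (0.25) in stiff IPN minus soft IPN, ZMAT3 in stiff col minus stiff IPN (-0.098), MDM2 (0.0084), SESN1 (0.049), ZMAT3 (0.084) and FAS (0.035) in soft col:rBM minus soft IPN, ZMAT3 (-0.18) and BTG2 (-0.044) in the difference of stiffness effects and ZMAT3 (0.091) between replicates. Without a change of sign it moved these values by over 1.5 times. In stiff IPN minus soft IPN they were MDM2 0.57, GDF15 -0.089, SESN1 -0.055, ZMAT3 0.28, FAS 0.50 and BTG2 -0.021. In stiff col minus soft col:rBM they were MDM2 0.068, ZMAT3 0.10 and BTG2 -0.065, in stiff col minus stiff IPN GDF15 0.086, FAS -0.23 and RRM2B 0.055, and in soft col:rBM minus soft IPN CDKN1A -0.057, TP53I3 -0.080 and RRM2B -0.12. In the difference of stiffness effects they were CDKN1A -0.30, MDM2 -0.50, SESN1 0.22, FAS -0.26, TP53I3 -0.45 and RRM2B 0.18, and between replicates CDKN1A 0.16, MDM2 0.39 and RRM2B 0.28.

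Leaving out each library in turn, without and with the replicate block, gave the following lowest and highest values. In stiff IPN minus soft IPN 0 to 1 of the 9 and 0 to 2666 genes were called, the median of the 9 was -0.31 to 0.027, CDKN1A -0.65 to 0.47, MDM2 0.16 to 0.44, SESN1 -0.58 to -0.076, TP53I3 -0.42 to -0.060, GDF15 -0.97 to 0.26, ZMAT3 -0.22 to 0.25, FAS -0.15 to 0.60, BTG2 -0.81 to 0.23 and RRM2B -0.31 to 0.27. In stiff col minus soft col:rBM 0 to 30 genes were called, the median was -0.19 to 0.39, CDKN1A -0.46 to 0.11, GDF15 0.29 to 1.21, TP53I3 -0.70 to -0.23, RRM2B 0.085 to 0.67, MDM2 -0.29 to 0.32, SESN1 -0.19 to 0.42, ZMAT3 -0.16 to 0.27, FAS -0.31 to 0.67 and BTG2 -0.73 to 0.50. In stiff col minus stiff IPN 0 to 1 of the 9 and 0 to 2188 genes were called, the median was -0.22 to 0.15, CDKN1A -0.81 to 0.31, MDM2 -0.69 to -0.079, SESN1 0.077 to 0.68, TP53I3 -0.65 to -0.18, GDF15 -0.27 to 0.66, ZMAT3 -0.22 to 0.24, FAS -0.61 to 0.37, BTG2 -0.92 to 0.28 and RRM2B -0.070 to 0.40. In soft col:rBM minus soft IPN 0 to 21 genes were called, the median was -0.34 to 0.061, CDKN1A -0.45 to 0.12, GDF15 -1.53 to -0.30, TP53I3 -0.31 to -0.064, MDM2 -0.26 to 0.061, SESN1 -0.34 to 0.22, ZMAT3 -0.15 to 0.099, FAS -0.46 to 0.32, BTG2 -1.11 to 0.12 and RRM2B -0.52 to 0.062. In the difference of stiffness effects 0 to 657 genes were called, the median was -0.10 to 0.45, CDKN1A -0.64 to 0.47, GDF15 0.49 to 1.73, SESN1 0.14 to 0.74, RRM2B 0.10 to 0.69, MDM2 -0.59 to 0.020, ZMAT3 -0.19 to 0.27, FAS -0.53 to 0.45, TP53I3 -0.46 to 0.0063 and BTG2 -0.44 to 0.79. In the F test 0 to 3 of the 9 and 0 to 2007 genes were called, the highest without stiff IPN replicate 1 with the block. Between replicates 1 to 6 of the 9 and 1206 to 5830 genes were called, and CDKN1A was -0.25 to 0.17, MDM2 0.15 to 0.33, GDF15 -0.94 to -0.63, SESN1 0.21 to 0.44, FAS 0.38 to 0.72, TP53I3 0.26 to 0.36, BTG2 0.96 to 1.15, ZMAT3 -0.15 to 0.075 and RRM2B -0.0019 to 0.29.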
